A study of Mus musculus with 2 samples.

Results

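The genes described here mark the cells of brain blood vessels: 21 endothelial genes, 9 pericyte genes, 5 smooth muscle genes and Slc6a13, a GABA transporter of perivascular and meningeal cells. The 36 genes were taken by name from 43346 annotated genes, each matched to its symbol through GENCODE M21, and all 36 were found. The rule used no measured value. The samples were 2 libraries of polyadenylated RNA longer than 200 nt, made from the frontal cortex of 8-week-old mice of the inbred strain C57BL/6J and sequenced as stranded read pairs. Both form 1 group, with no mutant, treatment or control, so the comparisons are between genes and between replicate 2 and replicate 1. The labels describe littermates of both sexes, pooled, and do not say how many animals gave each library, so the spread between replicates may hold technical as well as animal variation.

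Endothelial cells line the vessel. In brain they are joined by tight junctions and carry selected nutrients through transporters while pumping other compounds back into blood, which together make the blood-brain barrier. Pericytes sit on capillaries inside the same basement membrane and depend on PDGF-B released by the endothelium, whereas contractile smooth muscle cells wrap arterioles and arteries. Growth factors of the VEGF and angiopoietin families act on receptor tyrosine kinases of the endothelium.

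Replicate 2 held 90476207 expected counts (estimated read pairs per gene, summed over all entries) and replicate 1 held 106084891. The 36 genes took 97647 counts, 0.112% of all annotated-gene counts, in replicate 2, and 130167 counts, 0.128%, in replicate 1. The libraries differed in sex-linked RNA in spite of the labels: Xist, the RNA that silences an X chromosome, reached 77696 counts in replicate 2 and 107 counts in replicate 1, while 4 Y-linked genes together had 8 counts in replicate 2 and 18162 in replicate 1. Sex and replicate cannot be told apart in any value given below. In bulk tissue, fewer cells of a type and less RNA per cell cannot be told apart either.

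All 36 genes were detected in both libraries, and 35 reached a mean of 1 TPM (the deposited level per transcript length and library size). Cnn1, the smooth muscle gene calponin, stayed below that level with 0.55 TPM in replicate 2 and 0.63 TPM in replicate 1. The endothelial genes had a median of 12.7 TPM in replicate 2 and 15.2 TPM in replicate 1, or 13.9 ± 1.75 TPM (SD, n = 2). The median pericyte gene had 5.72 TPM in replicate 2 and 5.40 TPM in replicate 1, or 5.56 ± 0.226 TPM. For smooth muscle genes the median was 6.70 TPM in replicate 2 and 10.3 TPM in replicate 1, or 8.50 ± 2.55 TPM. Over all members, the endothelial median was the highest in both libraries and the pericyte median the lowest. The place of endothelial genes above smooth muscle genes rested on Cnn1 in replicate 1. Over the 4 smooth muscle members at 1 TPM or more, the smooth muscle median was 9.81 TPM in replicate 2 and 15.96 TPM in replicate 1, with a mean of 12.9 TPM. It was thus under the endothelial median in replicate 2 and over it in replicate 1. Within each group the genes spread much more widely than the libraries did, with means of 3.25 to 107 TPM for endothelial, 1.5 to 96.0 TPM for pericyte and 0.59 to 27.8 TPM for smooth muscle genes. The deposited TPM intervals of the libraries did not overlap for 27 of the 35 genes at 1 TPM or more, where this held for 48.7% of all genes at that level. For scale, the median of all 14599 genes at a mean of 1 TPM or more was 11.9 TPM in replicate 2 and 13.1 TPM in replicate 1.

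**Figure D1:**
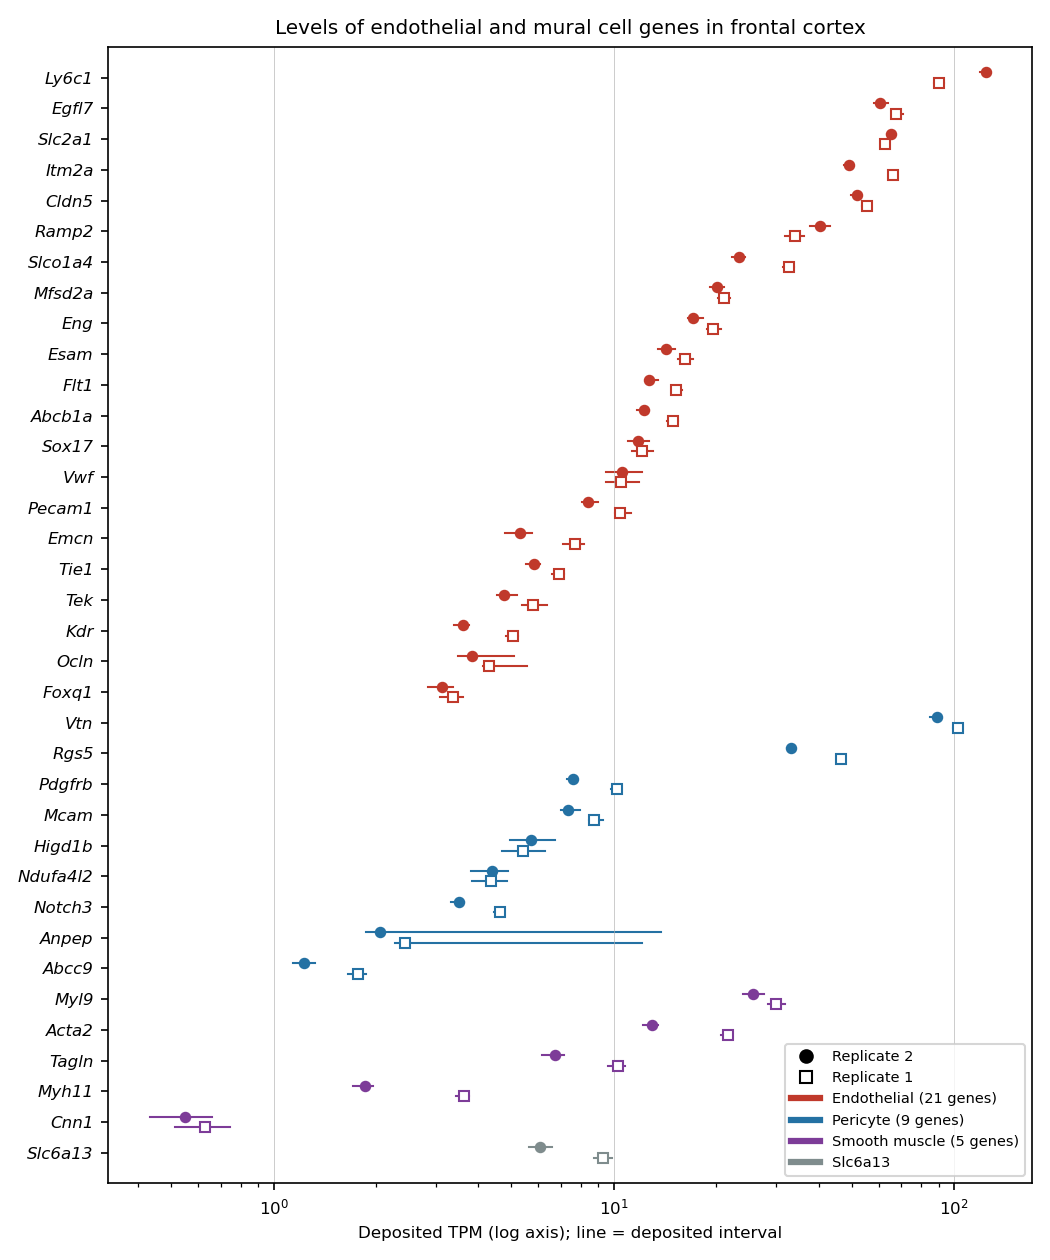
Deposited TPM of each of the 36 genes on a log axis, with a point per library and a line for the deposited interval, grouped as endothelial, pericyte, smooth muscle and other. By mean level Ly6c1 is the highest gene, with 124 TPM in replicate 2 against 90.5 TPM in replicate 1, and Cnn1 the lowest, with 0.55 TPM in replicate 2 against 0.63 TPM in replicate 1.

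The 4 barrier transporters were expressed at a median of 21.7 TPM in replicate 2 and 26.9 TPM in replicate 1. Slc2a1 (chr4:119108711-119137983, plus strand, mm10), the glucose transporter of the barrier, led them with 65.1 TPM in replicate 2 and 62.6 TPM in replicate 1. Slco1a4, a carrier of organic anions, had 23.4 TPM in replicate 2 and 32.7 TPM in replicate 1. Mfsd2a, which carries lysolipids with omega-3 fatty acids, had 20.0 TPM in replicate 2 and 21.1 TPM in replicate 1. Slco1a4 exceeded Mfsd2a in both libraries, by 0.43 ± 0.29 on the log2 scale of TPM. Abcb1a, the efflux pump P-glycoprotein, had 12.3 TPM in replicate 2 and 14.9 TPM in replicate 1. Its close copy Abcb1b had 0.57 TPM in replicate 2 and 0.86 TPM in replicate 1, so Abcb1a was 4.27 ± 0.22 higher on that scale. Abcg2, the other large efflux pump of the barrier, had 8.64 TPM in replicate 2 and 11.2 TPM in replicate 1, and Abcb1a over Abcg2 was 0.46 ± 0.07.

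Among junction and adhesion genes, Cldn5 had the highest and Ocln the lowest level in both libraries. Cldn5 (chr16:18776847-18778262, plus strand), the claudin that seals brain endothelium, had 51.8 TPM in replicate 2 and 55.5 TPM in replicate 1. Ocln, the tight junction protein occludin, had 3.82 TPM in replicate 2 and 4.29 TPM in replicate 1. Cldn5 was therefore 3.73 ± 0.05 above Ocln on the log2 scale of TPM. Esam, an adhesion molecule of endothelial tight junctions, had 14.2 TPM in replicate 2 and 16.2 TPM in replicate 1. Pecam1, the pan-endothelial adhesion molecule, had 8.37 TPM in replicate 2 and 10.4 TPM in replicate 1. Emcn, a sialomucin of capillaries and veins, had 5.29 TPM in replicate 2 and 7.68 TPM in replicate 1. Each of these genes was lower in TPM in replicate 2. The median of all genes was also lower on TPM, with log2 of replicate 2 over replicate 1 at −0.12 with a pseudocount of 1. On counts scaled for depth, the ratio of Cldn5 was 0.03. The deposited intervals of the libraries overlapped for Ocln and for no other gene of this role.

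Surface and secreted proteins were the most abundant endothelial role. Ly6c1, a lipid-anchored surface protein, had 124 TPM in replicate 2 and 90.5 TPM in replicate 1, and ranked 847 among 21461 nuclear protein-coding genes by mean level. Its near copy Ly6c2 had 0.42 TPM in replicate 2 and 0.28 TPM in replicate 1. Egfl7, a secreted protein of the vessel matrix, had 60.7 TPM in replicate 2 and 67.7 TPM in replicate 1. Egfl7 overlaps Agpat2 on the opposite strand. Egfl7 and Slc2a1 changed places between the libraries, and their means of 64.2 ± 4.96 and 63.9 ± 1.80 TPM differed by less than either SD. Itm2a, a membrane glycoprotein on the X chromosome, had 49.1 TPM in replicate 2 and 66.3 TPM in replicate 1. Vwf, the clotting factor von Willebrand factor, had 10.6 TPM in replicate 2 and 10.5 TPM in replicate 1, and most of it came from short transcripts described further on. The transcription factors were lower, where Sox17 had 11.8 TPM in replicate 2 and 12.1 TPM in replicate 1 and Foxq1 had 3.12 TPM in replicate 2 and 3.37 TPM in replicate 1.

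By TPM over all their transcripts, the receptors were ordered in the same way in both libraries. Ramp2, which turns the receptor Calcrl into a receptor for adrenomedullin, led with 40.41 TPM in replicate 2 and 33.97 TPM in replicate 1. Calcrl itself had 2.02 TPM in replicate 2 and 2.50 TPM in replicate 1, so Ramp2 lay 4.04 ± 0.40 above it on the log2 scale of TPM. On counts not divided by length, Ramp2 lay 1.81 above Calcrl. Ramp2 overlaps Vps25 on the same strand, and reads from the 2 genes may be shared. Eng, a TGF-beta family coreceptor that overlaps Fpgs on the opposite strand, had 17.1 TPM in replicate 2 and 19.5 TPM in replicate 1. Over transcripts annotated as coding, Ramp2 had 20.56 TPM in replicate 2 and 16.05 TPM in replicate 1. Eng had 16.54 TPM in replicate 2 and 18.74 TPM in replicate 1 over such transcripts, so Ramp2 led Eng only in replicate 2. Flt1, the VEGF receptor that binds its ligand tightly and signals weakly, had 12.7 TPM in replicate 2 and 15.2 TPM in replicate 1. Kdr, the main signalling receptor for VEGF-A, had 3.59 TPM in replicate 2 and 5.06 TPM in replicate 1. Kdr over Flt1 was −1.70 ± 0.17 on the log2 scale of TPM. The angiopoietin receptor Tek had 4.75 TPM in replicate 2 and 5.79 TPM in replicate 1, and its relative Tie1 had 5.81 TPM in replicate 2 and 6.90 TPM in replicate 1. Tek over Tie1 was −0.27 ± 0.03 on the log2 scale.

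Flt1 and Kdr sit on the same chromosome and strand, and their promoters are shown because these receptors share a ligand and differed in level. The sequences run 5′ to 3′ on the gene's strand from 250 bases before to 50 after the transcription start, from RefSeq on GRCm38.p6, the build also called mm10. Capitals mark AGGAAG, a narrow form of the ETS transcription factor site, searched on both strands. Other forms around the shorter core GGAA were not searched.
Flt1 promoter, chr5:147725962-147726261, minus strand: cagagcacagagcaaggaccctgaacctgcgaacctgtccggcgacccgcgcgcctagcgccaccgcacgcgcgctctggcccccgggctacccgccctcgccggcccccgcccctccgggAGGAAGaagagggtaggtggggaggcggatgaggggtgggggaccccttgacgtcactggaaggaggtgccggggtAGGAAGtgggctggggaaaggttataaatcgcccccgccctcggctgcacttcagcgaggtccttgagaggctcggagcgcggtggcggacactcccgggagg
Kdr promoter, chr5:75978406-75978705, minus strand: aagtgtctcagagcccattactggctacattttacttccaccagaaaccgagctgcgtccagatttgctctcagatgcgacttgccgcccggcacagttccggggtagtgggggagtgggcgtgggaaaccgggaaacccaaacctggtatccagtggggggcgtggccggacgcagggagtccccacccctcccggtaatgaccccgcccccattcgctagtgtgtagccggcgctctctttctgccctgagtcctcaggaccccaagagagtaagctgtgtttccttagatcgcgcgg
The Flt1 promoter held AGGAAG at −129 and −53 from the start base, and the Kdr window held no AGGAAG. The shorter GGAA did occur in the Kdr window, on both strands, and whether Kdr lacks ETS sites was not tested. AGGAAG was found in 10 of 19 endothelial promoters of 15 genes (52.6%), in 0 of 6 pericyte and 0 of 3 smooth muscle promoters, and in 11613 of all 32851 promoters (35.4%). These are shares of windows, not of genes: Egfl7, Ly6c1 and Ocln had more than 1, and those of Ly6c1 and of Ocln overlapped. The Abcb1a window, chr5:8566841-8567140, held a match but lies upstream of the M21 gene start at 8660077. A match of these letters is a description and was not tied to binding, and a link of matches to level was not tested.

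Among pericyte genes the matrix protein vitronectin was far above the rest. Vtn had 89.0 TPM in replicate 2 and 103 TPM in replicate 1, and it ranked 975 by mean level. Rgs5 (chr1:169655501-169695813, plus strand), a brake on G protein signalling, had 33.1 TPM in replicate 2 and 46.5 TPM in replicate 1. On the log2 scale of TPM, Rgs5 over Vtn was −1.29 ± 0.20, but on counts not divided by length the sign turned, to 0.40, since Rgs5 is the longer transcript. Pdgfrb, the receptor for PDGF-B, had 7.60 TPM in replicate 2 and 10.2 TPM in replicate 1, with no overlap of the deposited intervals. The adhesion molecule Mcam had 7.35 TPM in replicate 2 and 8.75 TPM in replicate 1, and overlaps Gm10687 on the opposite strand.

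The other pericyte genes were all below 6 TPM. Higd1b, a mitochondrial protein, had 5.72 TPM in replicate 2 and 5.40 TPM in replicate 1. Ndufa4l2, a mitochondrial protein induced by hypoxia, had 4.37 TPM in replicate 2 and 4.35 TPM in replicate 1, and overlaps Shmt2 on the opposite strand. These were the 2 pericyte genes whose TPM was not lower in replicate 2. Notch3, the Notch receptor of mural cells, had 3.51 TPM in replicate 2 and 4.64 TPM in replicate 1, against 6.52 TPM in replicate 2 and 6.73 TPM in replicate 1 for Notch1. Notch3 over Notch1 was −0.72 ± 0.25 on the log2 scale of TPM. Anpep, aminopeptidase N, had 2.05 TPM in replicate 2 and 2.44 TPM in replicate 1. Its deposited interval reached 13.7 TPM in replicate 2 and 12.1 TPM in replicate 1, so its level was poorly fixed. Abcc9, the regulatory subunit of a potassium channel gated by ATP, had 1.23 TPM in replicate 2 and 1.77 TPM in replicate 1. Kcnj8, the pore subunit of that channel, had 2.33 TPM in replicate 2 and 3.18 TPM in replicate 1.

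The contractile genes kept one order of level in both libraries. Myl9, the regulatory light chain of smooth muscle myosin, had 25.7 TPM in replicate 2 and 29.9 TPM in replicate 1. Acta2, smooth muscle actin, had 12.9 TPM in replicate 2 and 21.6 TPM in replicate 1. Tagln, the actin-binding protein transgelin, had 6.70 TPM in replicate 2 and 10.3 TPM in replicate 1, and overlaps Pcsk7 on the opposite strand. Myh11, the smooth muscle myosin heavy chain, had 1.85 TPM in replicate 2 and 3.62 TPM in replicate 1. Replicate 2 was the lower library for each of these 4 genes, and the deposited intervals of the libraries overlapped for none of them. Acta2 over Tagln was 1.01 ± 0.09 and Myh11 over Acta2 was −2.69 ± 0.16 on the log2 scale of TPM. The sister genes Acta1, Actg2 and Actc1 had 12.2, 0.82 and 0.01 TPM in replicate 2 and 10.5, 0.40 and 0.04 TPM in replicate 1. Because actin genes are near copies in their coding parts, the division of reads among them rests on the authors' quantification.

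The CArG box, the site of serum response factor, was searched only in its strict form: CC, 6 bases of A or T, then GG. Myl9 is shown because it held the sole match to this form among the promoters of 3 smooth muscle genes (Acta2, Myl9 and Cnn1). Near forms, such as those in the Acta2 window, were not counted, so a window without a match may still hold a site. Capitals mark the box, and the sequence has the same source, build and extent as those of the receptors.
Myl9 promoter, chr2:156775214-156775513, plus strand: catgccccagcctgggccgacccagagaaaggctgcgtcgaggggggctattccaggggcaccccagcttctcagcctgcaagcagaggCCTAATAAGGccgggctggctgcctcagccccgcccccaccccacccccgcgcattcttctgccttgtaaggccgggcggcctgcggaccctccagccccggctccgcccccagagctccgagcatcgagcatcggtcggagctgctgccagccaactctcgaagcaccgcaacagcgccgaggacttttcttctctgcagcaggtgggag
The box lies at −161 from the RefSeq start base. No match was found in 19 endothelial and 6 pericyte promoters, and 535 of all 32851 promoters held one (1.63%). No promoter of these genes held both motifs. The table of promoters matched 25 of the 36 genes, and Tagln, Ramp2, Pecam1, Vwf, Foxq1, Esam, Ndufa4l2, Higd1b, Myh11, Sox17 and Pdgfrb were not among them.

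Slc6a13 had 6.05 TPM in replicate 2 and 9.28 TPM in replicate 1. Its deposited intervals did not overlap, reaching 6.57 TPM at most in replicate 2 and starting at 8.72 TPM in replicate 1.

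Of the 20 pairs of genes compared in level, all 20 had 1 sign in both libraries, a mean above its SD and deposited intervals that did not overlap in either library. The pairs were chosen with values of these data known, so this count is a description. No p is given, since an exact sign-flip permutation test over 2 libraries has a two-sided p of 0.5 at the least. A receptor was set against its ligand in 3 pairs. Vegfa, the ligand of Kdr and Flt1, had 71.5 TPM in replicate 2 and 87.3 TPM in replicate 1, and Kdr over Vegfa was −4.21 ± 0.15. Pdgfb had 14.6 TPM in replicate 2 and 15.3 TPM in replicate 1, and Pdgfrb over Pdgfb was −0.76 ± 0.25 in TPM, but 0.18 on counts not divided by length. The receptor was the higher in the third pair. Angpt1, the activating ligand of Tek, had 1.74 TPM in replicate 2 and 2.13 TPM in replicate 1, and Tek over Angpt1 was 1.45 ± 0.004. Angpt2, a context-dependent antagonist of Tek that overlaps Mcph1 on the opposite strand, had 0.50 TPM in replicate 2 and 0.65 TPM in replicate 1, and Angpt1 over Angpt2 was 1.76 ± 0.06. Vegfa over Vegfb was 0.58 ± 0.21. Slc2a3, the neuronal glucose transporter, had 49.9 TPM in replicate 2 and 54.6 TPM in replicate 1. Slc2a1 exceeded it by 0.29 ± 0.13 in TPM and was below it on counts, at −0.29. Abcc9 over Kcnj8 was −0.88 ± 0.05 in TPM and 0.98 on counts.

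**Figure D2:**
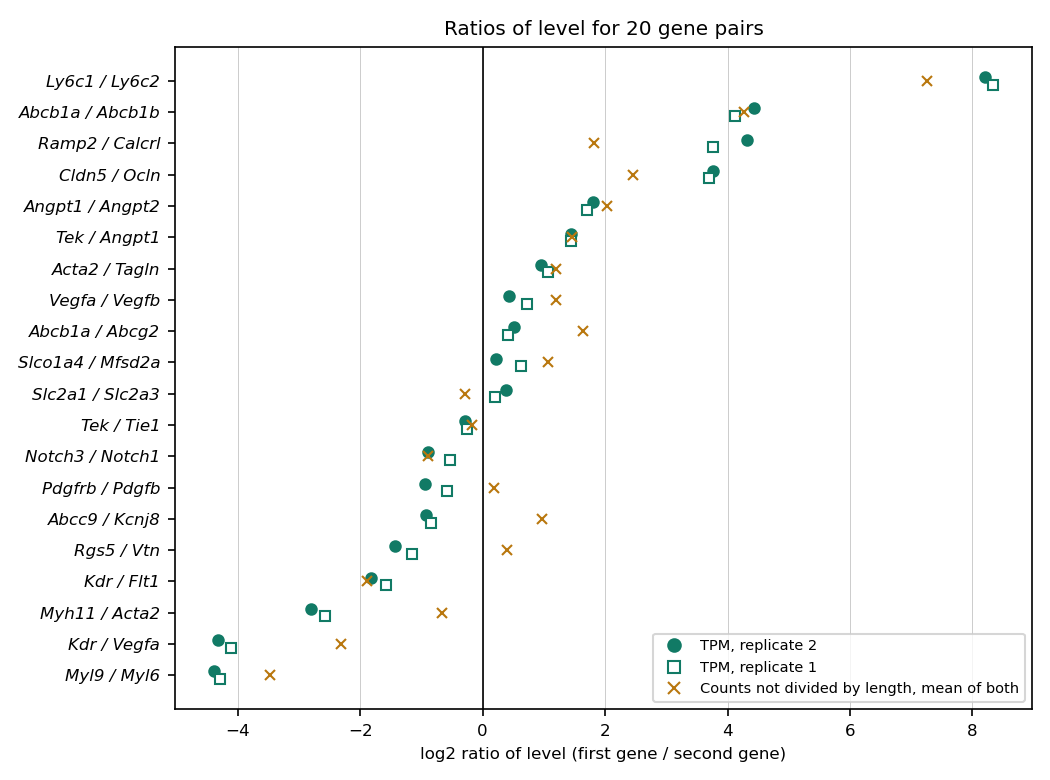
Log2 ratio of TPM between the genes of each of 20 pairs, with a point per library, a cross for counts not divided by length and zero marked by the vertical line. In TPM both libraries fall on the same side of zero in 20 of 20 pairs, from Ly6c1 over Ly6c2 at 8.27 to Myl9 over Myl6 at −4.34.

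Which transcripts carried these levels was read from the isoform percent that the authors deposited. Of the 35 genes at a mean of 1 TPM or more, 8 had 1 annotated transcript and 27 had several. Among the 27, the leading transcript took 90% or more in 6 genes, 50 to 90% in 15 and less than 50% in 6, with a median of 71.0%. It was the same transcript in both libraries for 25 of 27, with Anpep and Egfl7 as exceptions. By the deposited posterior means, however, Anpep had the same leading transcript in both libraries. This was a processed transcript of 178 nt, at 65.8% in replicate 2 and 56.7% in replicate 1.

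Flt1 was split between a long and a short receptor. The transcript of 30 exons, which encodes the membrane receptor, took 62.5% in replicate 2 and 63.9% in replicate 1. The transcript of 13 exons, which encodes the secreted receptor that traps VEGF, took 37.5% in replicate 2 and 35.8% in replicate 1. This secreted form alone, with 4.76 TPM in replicate 2 and 5.44 TPM in replicate 1, was above the whole of Kdr. Kdr itself came from a single transcript at 98.6% in replicate 2 and 98.4% in replicate 1.

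For some members much of the TPM belonged to transcripts annotated as noncoding, a share of at least 10% in both libraries for Abcb1a, Egfl7, Ramp2, Sox17, Vtn and Vwf. In Vwf a processed transcript of 456 nt took 50.1% in replicate 2 and 45.9% in replicate 1. The Vwf transcripts of 8000 nt or more had 1.73 TPM in replicate 2 and 2.11 TPM in replicate 1, or 1.92 ± 0.269 TPM (SD, n = 2), yet they held 1119 of its counts in replicate 2 and 1506 in replicate 1. A transcript with a retained intron led in Ramp2, at 44.0% in replicate 2 and 43.1% in replicate 1. In Abcb1a such a transcript took 29.0% in replicate 2 and 28.1% in replicate 1.

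Other genes divided their TPM differently in the libraries. The coding transcript of Vtn took 62.8% in replicate 2 and 74.4% in replicate 1. That of Myl9 took 76.9% in replicate 2 and 90.3% in replicate 1. The main Ly6c1 transcript, of 844 nt, took 62.6% in replicate 2 and 79.4% in replicate 1, while one of 522 nt took 24.4% in replicate 2 and 7.58% in replicate 1. The effective length of Ly6c1, by which its counts are divided, was accordingly 528 nt in replicate 2 and 594 nt in replicate 1.

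**Figure D3:**
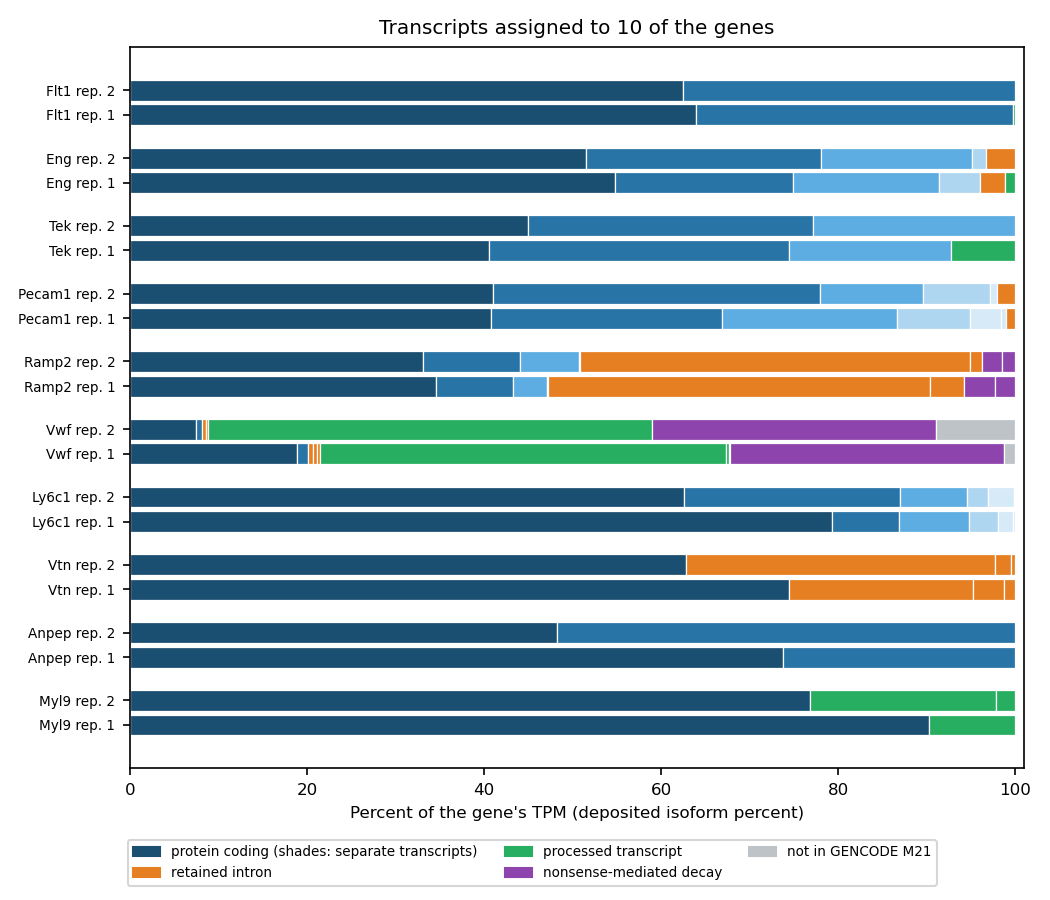
Share of each gene's TPM, in percent, given by each of its transcripts, with a bar per library and colours for the annotated transcript type, for 10 of the genes. The 13-exon Flt1 transcript takes 37.5% in replicate 2 and 35.8% in replicate 1. By this percent, though not by posterior means, Anpep has another leading transcript in each library.

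Replicates were compared on counts, as log2 of replicate 2 over replicate 1 after scaling for depth and composition. A gene was called lower or higher when the ratio was 0.25 or more in size and its 95% counting interval lay off 0, which covers counting error only and compares these 2 libraries. Ratios were below 0 for 26 of the 35 genes, against 50.5% of all 14599 genes. By the call rule 12 of 35 were lower in replicate 2, where 7.86% of all genes were, and 2 of 35 were higher, where 7.8% of all genes were. The median was −0.14 over the 35 genes and 0.00 over all genes.

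The groups of listed genes differed in this ratio, with endothelial genes nearest to the median of all genes. The endothelial median was −0.07, with 14 of 21 below 0, 4 called lower and 2 called higher. The pericyte median was −0.24, with 7 of 9 below 0, 4 called lower and 0 higher. The smooth muscle median was −0.55 over the 4 genes at 1 TPM or more, with 4 of 4 below 0, 3 called lower and 0 higher. With Cnn1 included the median was −0.49. Counts summed over each group gave the same order, at −0.04 for endothelial, −0.28 for pericyte and −0.52 for smooth muscle genes. The ranges overlapped, from −0.44 to 0.42 for endothelial, from −0.38 to 0.15 for pericyte and from −0.83 to −0.23 for smooth muscle genes. With 1 library on each side these differences have no replicate check.

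**Figure D4:**
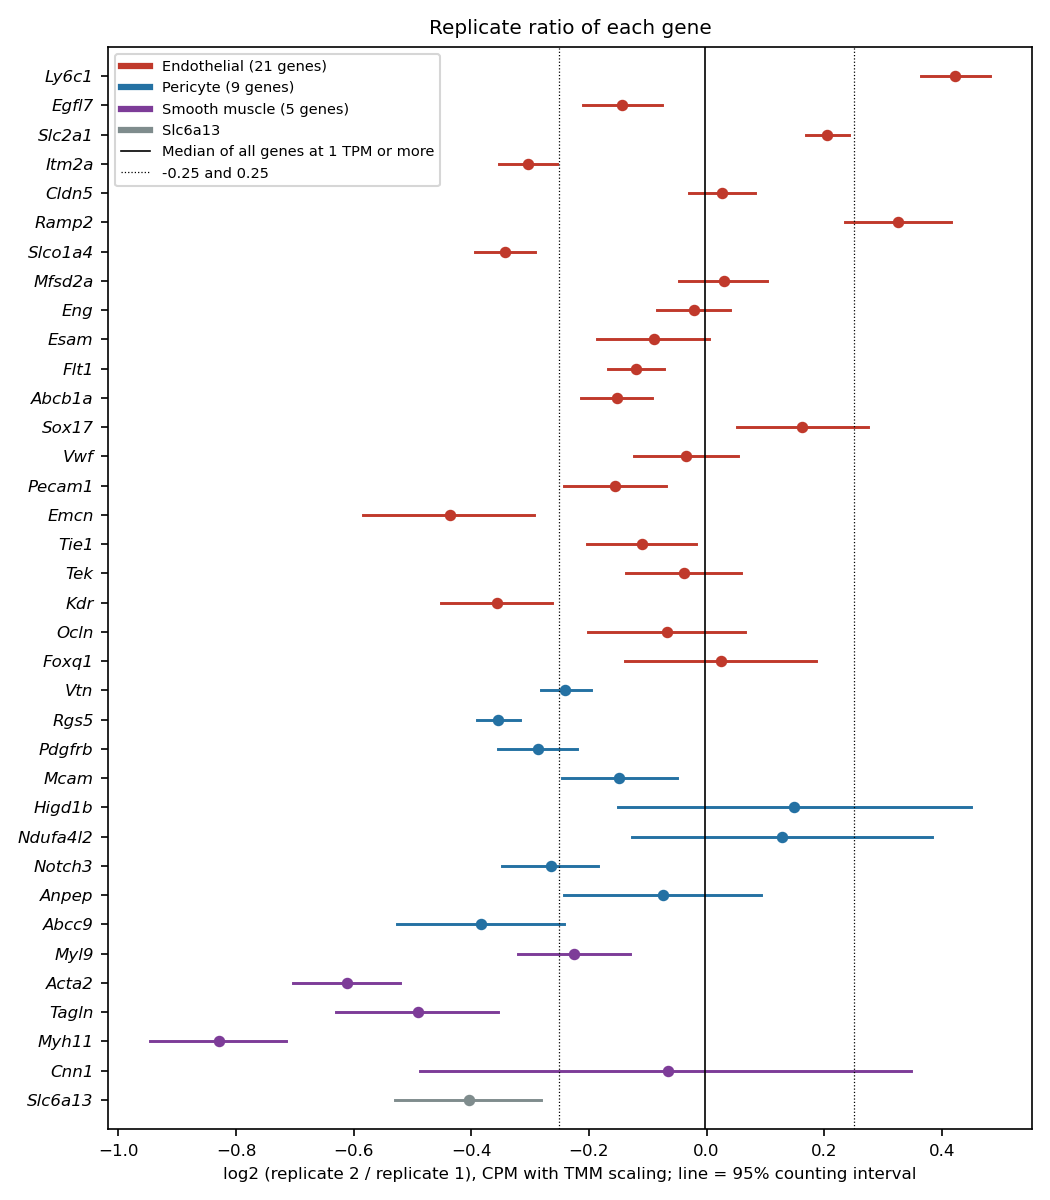
Log2 of replicate 2 over replicate 1 for the 35 genes at 1 TPM or more and Cnn1, from counts scaled with TMM, with 95% counting intervals as lines. Myh11 lies lowest at −0.83 and Ly6c1 highest at 0.42. The points of all smooth muscle genes lie left of 0, and the interval of Cnn1 spans 0.

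Myh11 was the gene farthest from 0, with 891 counts in replicate 2 and 1924 in replicate 1, a ratio of −0.83 (interval −0.95 to −0.72). Acta2 followed at −0.61 and Tagln at −0.49, and Slc6a13 was also called lower, at −0.40. Myl9 was just short of the call at −0.23, as did Vtn at −0.24, whereas Notch3 was just past it at −0.27. Cnn1, with 88 counts in replicate 2 and 112 in replicate 1, had a ratio of −0.07. The pericyte genes called lower were Abcc9 at −0.38, Rgs5 at −0.35 (interval −0.39 to −0.32), Pdgfrb at −0.29 and Notch3.

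Endothelial genes moved both ways between the libraries. Emcn at −0.44 (interval −0.58 to −0.29), Kdr at −0.36, Slco1a4 at −0.34 and Itm2a at −0.30 were called lower. Ly6c1 at 0.42 (interval 0.36 to 0.48) and Ramp2 at 0.33 were called higher. Slc2a1 was higher by 0.21 (interval 0.17 to 0.24), under the size needed for a call. Cldn5 at 0.03, Mfsd2a at 0.03, Eng at −0.02 and Foxq1 at 0.02 were close to 0. On the scale of TPM, where the median of all genes was itself at −0.12, the sign of Cldn5, Mfsd2a, Sox17, Foxq1 and Vwf turned.

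Some markers of other cells were also lower in replicate 2. Of 9 genes of meningeal fibroblasts, 8 were below 0, with a median of −0.37 and a sum of 76.5 TPM in replicate 2 and 107 TPM in replicate 1. All 7 microglia and macrophage genes at 1 TPM or more were below 0, with a median of −0.48 and a sum over all 8 of 167 TPM in replicate 2 and 243 TPM in replicate 1. Red blood cell genes went the other way, with 5 of 5 above 0, a median of 0.46 and a sum of 666 TPM in replicate 2 and 515 TPM in replicate 1. Among astrocyte endfoot genes 1 of 3 was below 0, with a sum of 181 TPM in replicate 2 and 201 TPM in replicate 1. The 5 choroid plexus genes summed to 2.55 TPM in replicate 2 and 2.54 TPM in replicate 1, each below a mean of 1 TPM. No marker of these lists was at 0 in both libraries. Their part in the ratios of the vascular genes was not tested.

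Effective length moved with the ratio only slightly over all genes, with medians from 0.04 for genes of 500 to 1000 nt to −0.02 for those of 4000 nt or more. Relative to genes of like length, the median was −0.06 for endothelial, −0.24 for pericyte and −0.56 for smooth muscle genes.

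The wider pathways were described through 92 partner genes, of which 83 reached a mean of 1 TPM. Of these 83, 51 had a ratio below 0, 16 were called lower and 5 higher, with a median of −0.05, where 50.5%, 7.86% and 7.8% of all genes were below 0, called lower and called higher. With lists this short, 1 call in 10 or 11 genes is near the share of all genes. In the VEGF list, 2 of 6 genes were called lower, Nrp2 and Vegfc, and 0 higher. Vegfb, a ligand of Flt1, had 53.0 TPM in replicate 2 and 52.9 TPM in replicate 1. TGF-beta and BMP genes had 3 of 7 called lower, the receptors Tgfbr1 at −0.33 and Tgfbr2 at −0.28 and the ligand Tgfb2 at −0.32. Barrier transport genes had 3 of 10 called lower, Abcg2 at −0.31, Slco2b1 at −0.33 and Slco1c1 at −0.27. The most abundant of them, Slc3a2, an amino acid carrier subunit, had 56.8 TPM in replicate 2 and 60.5 TPM in replicate 1.

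Partner lists near the median of all genes included those of the barrier's Wnt pathway and of junctions. In the Wnt list 1 of 11 genes was called lower, the ligand Wnt7b at −0.53, and its most abundant gene, the target Apcdd1, had 27.3 TPM in replicate 2 and 34.7 TPM in replicate 1. In the junction list 1 of 9 was called lower, Cgn at −0.40, and 1 higher, Lsr at 0.38, and the adhesion molecule Jam2 led with 26.96 TPM in replicate 2 and 28.81 TPM in replicate 1. In the angiopoietin list 0 of 2 genes at 1 TPM or more, Angpt1 and the phosphatase Ptprb, were called. In the Notch list 1 of 11 was called lower, the endothelial ligand Dll4 at −0.40. Among adrenomedullin genes Calcrl was lower at −0.50 and Ramp3 higher at 0.77, and Ramp3 had 15.0 TPM in replicate 2 and 9.57 TPM in replicate 1. In the PDGF list Pdgfd was called lower at −0.40 and Pdgfa higher at 0.35, while Pdgfb was at 0.07.

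Partners of mural cells had a median ratio of −0.12. Of 10 smooth muscle and pericyte partners at 1 TPM or more, 1 was called lower, Kcnj8 at −0.32, and 1 higher, the transcription factor Srf at 0.30. The most abundant of them, Myl6 and Tpm1, had ratios of 0.00 and 0.02. Myl6, a myosin light chain of many cell types, had 539 TPM in replicate 2 and 583 TPM in replicate 1, and Myl9 over Myl6 was −4.34 ± 0.08 in TPM. The muscle genes Lmod1 and Pln were under a mean of 1 TPM, where Lmod1 had 0.22 TPM in replicate 2 and 0.57 TPM in replicate 1 and Pln had 0.55 TPM in replicate 2 and 1.24 TPM in replicate 1. Their ratios were −1.22 for Lmod1 and −1.03 for Pln. Myocd, also under 1 TPM, was at −0.94, with 15 counts in replicate 2 and 37 in replicate 1. The counting intervals of Lmod1, Pln and Myocd, the partners of this list left out by the 1 TPM limit, all lay under 0. Among arterial genes Gkn3 had 17.1 TPM in replicate 2 and 14.2 TPM in replicate 1, and Efnb2 had 13.8 TPM in replicate 2 and 22.5 TPM in replicate 1. By counts Gkn3 was called higher at 0.39 and Efnb2 lower at −0.29. The venous list had a median ratio of −0.10 over 6 genes, with the adhesion molecule Vcam1 called lower at −0.31, and its most abundant gene, Ackr1, overlaps Cadm3 on the same strand. Of the partners named with values, Notch1, Pdgfa, Wnt7b, Lsr, Pln and Acta1 overlap another expressed gene on the opposite strand.

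**Figure D5:**
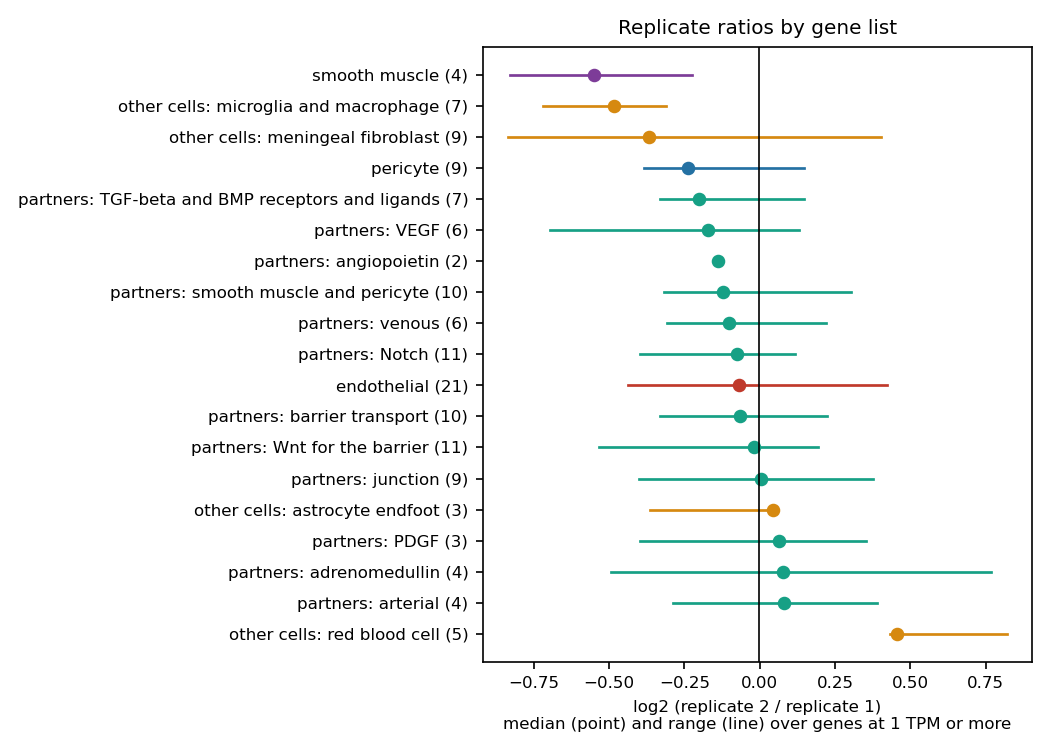
Median and range of log2 of replicate 2 over replicate 1 for the cell groups, the partner lists and the lists of other cells, over genes at 1 TPM or more. Smooth muscle genes have a median of −0.55, pericyte genes −0.24 and endothelial genes −0.07, against 0.46 for red blood cell genes.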

How the data were processed

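Polyadenylated RNA of frontal cortex was measured in 2 libraries of 1 group. The authors deposited, per library, expected counts, TPM, FPKM and posterior means per gene and per transcript, with the percent of a gene's TPM in each transcript and interval bounds of TPM, treated as signal values. Per the deposited text descriptions, the build was mm10 and the annotation M4, whereas the aligner was not given in the sources used here, nor were the quantification program and its strand setting. The interval level is not stated in the deposited files.

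Gene identifiers were matched without version to GENCODE M21 (42462 of 43346 genes). The members, lists, pairs and thresholds were chosen with earlier results of these data known. All members are named, and of partner genes the most abundant and those of the pairs by value. Partners called lower or higher were named after their values were seen. 1 further pair is not reported here.

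Expected counts were rounded for TMM factors (0.982 in replicate 2 and 1.02 in replicate 1) from edgeR 4.0.16 and for DESeq2 1.42.0 size factors, in R 4.3.3, without spike-ins, which took 3.47% of counts in replicate 2 and 3.50% in replicate 1. CPM with a prior count of 2 gave the ratios. Exact conditional binomial intervals at 95% cover counting error only, since PCR copies cannot be told from separate molecules without molecular identifiers. The ratio and interval code was tested on simulated data. Overlap of genes used M21 genes at a mean of 1 TPM or more. Python 3.11.15, pandas 2.3.3 and scipy 1.17.1 were used. Alternatives were other scalings, TPM with pseudocounts, posterior means, filters and thresholds. Removal of noncoding transcripts and correction by length bin were added after seeing the data.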

Additional observations from a re-analysis of the deposited data

How the results depend on the processing

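No paired analysis was possible because both libraries belong to 1 group. Of the recomputed values, 51 stayed close to the reported ones and 10 moved, and no group median changed sign. Some of the 51 could not have moved, so the count overstates how far the results were tested. FPKM scaled to a fixed total is TPM again, and the 1 TPM limit removed no endothelial or pericyte gene. With 2 libraries, the level in each alone always lies within the SD of their mean. Counted pairs already had 1 sign in both libraries, so leaving a library out could not change their sign. Rescaling TPM to nuclear protein-coding genes gave median levels of 28.2 TPM for endothelial, 11.3 TPM for pericyte and 17.2 TPM for smooth muscle genes, in the same order as before, since it multiplies every gene of a library alike. Leaving out members under 1 TPM gave 12.9 TPM for smooth muscle genes. On TPM, the endothelial median ratio was −0.18 with a pseudocount of 1 and −0.19 with 0.1, and the smooth muscle ratio was −0.68 with 0.1, where the median of all genes was −0.12 and −0.13. Scaling by the library total gave a pericyte ratio of −0.29, with the median of all genes at −0.05. At a threshold of 0.5 in place of 0.25, 2 members were called lower, Acta2 and Myh11, and 0 higher. On counts not divided by length, 16 of the 20 pairs kept their sign, and 5 endothelial members named in the report turned sign on TPM. With 2 libraries an SD has 1 degree of freedom, and low genes such as Cnn1 and Higd1b rest on few counts, so small differences of these genes were not detectable at this depth.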
